A study of Caenorhabditis elegans with 2 samples.

Results

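Divergent promoters of Caenorhabditis elegans are stretches of DNA from which a gene on the minus strand and a gene on the plus strand are both transcribed, in opposite directions. The peaks at such promoters are described here for CEH-100, a homeobox protein, from chromatin immunoprecipitation and sequencing (ChIP-seq). A nuclear peak of the authors' conservative list, which keeps peaks found reproducibly across the replicates by their irreproducible discovery rate (IDR), counted when its summit had an annotated start of a protein-coding transcript within 500 bp on each strand. Of 1685 nuclear peaks, 234 met this rule (13.9%, 95% Wilson interval 12.3 to 15.6). A further 707 peaks had a start within 500 bp on one strand only, and 744 had none. No signal value entered the rule, which uses only the place of the summit and the annotation.

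The animals were whole young adults, 64 hours old, of strain RW12233, grown from first-stage larvae that had been starved after bleaching. The genotype, st12233[ceh-100::TY1::EGFP::3xFLAG] II, carries TY1, EGFP and FLAG tags inserted at the endogenous ceh-100 gene with CRISPR, and both samples carry it. The immunoprecipitation used anti-GFP antibody according to the sample descriptions, while the antibody field of the labels names ceh-100. There were 2 biological replicates and no other group, so no comparison between conditions could be made, and the peaks of a list are not replicates of one another. All shares and medians below are therefore descriptions without a test, and their intervals cover counting error only. Signal means the authors' enrichment value of a peak. It carries no unit and is not scaled between the joint list and those of the replicates, and the read depth of the libraries is unknown.

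Homeobox proteins bind DNA through a homeodomain, whose best-known target sequences contain TAAT. Neighbouring genes on opposite strands that start close together can share regulatory DNA, so that a single bound site lies upstream of both. Many worm messenger RNAs receive a spliced leader in place of their own first bases, and an annotated start can then lie downstream of the place where transcription begins.

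The summit sequences of 6 of the 20 highest peaks are shown first, to show both short recurring motifs and a longer repeated sequence near summits. They were read from the plus strand of the RefSeq WBcel235 genome, with 60 bases on either side of each summit, and all lie between the annotated starts of their pair. They were chosen after their values were seen. The first 3 hold no run of 31 bases that recurs in the nuclear genome. In them, capitals mark GAGACC or ACGCGC, short sequences searched on both strands and picked because they were frequent at these summits. The GAGACC of the first window lies more than 50 bp from the summit, outside the span in which motifs are counted below. They are the windows of F29B9.11 and jmjd-1.2 (chrIV:4660470-4660590), snx-13 and snr-1 (chrIV:17087583-17087703), and fib-1 and mut-15 (chrV:15002259-15002379).
F29B9.11 and jmjd-1.2: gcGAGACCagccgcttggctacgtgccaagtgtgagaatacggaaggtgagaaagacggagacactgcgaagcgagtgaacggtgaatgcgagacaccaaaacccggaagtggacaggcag
snx-13 and snr-1: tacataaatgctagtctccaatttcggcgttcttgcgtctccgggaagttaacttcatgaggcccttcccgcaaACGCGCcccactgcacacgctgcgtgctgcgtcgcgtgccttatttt
fib-1 and mut-15: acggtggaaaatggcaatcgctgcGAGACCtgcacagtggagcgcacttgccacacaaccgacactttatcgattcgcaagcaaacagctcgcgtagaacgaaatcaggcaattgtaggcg

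The other 3 windows belong to 1 repeated sequence. Here capitals mark every base within a run of 31 bases that occurs again elsewhere in the nuclear genome. They are the windows of czw-1 and F20D12.12 (chrIV:7947056-7947176), aka-1 and ubc-6 (chrII:7478876-7478996), and ruvb-1 and tofu-1 (chrV:9980808-9980928).
czw-1 and F20D12.12: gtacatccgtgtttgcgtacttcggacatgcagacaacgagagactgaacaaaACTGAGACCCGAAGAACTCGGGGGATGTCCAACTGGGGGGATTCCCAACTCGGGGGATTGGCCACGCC
aka-1 and ubc-6: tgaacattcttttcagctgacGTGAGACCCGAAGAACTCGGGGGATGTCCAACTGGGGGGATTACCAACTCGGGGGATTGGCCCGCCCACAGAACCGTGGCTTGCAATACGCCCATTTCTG
ruvb-1 and tofu-1: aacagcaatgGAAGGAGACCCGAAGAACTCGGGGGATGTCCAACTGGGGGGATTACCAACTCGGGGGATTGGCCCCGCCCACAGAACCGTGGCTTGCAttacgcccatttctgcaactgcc
These 3 share a stretch of 40 identical bases, which occurs 21 times in the nuclear genome and begins with GAGACC. The pairs that carry it are unrelated by name: czw-1 encodes a kinetochore protein, ubc-6 a ubiquitin-conjugating enzyme and tofu-1 a factor of piRNA processing.

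The members formed 226 gene pairs with 452 distinct genes, and no gene belonged to more than 1 pair. In 122 of the 234 peaks both genes had a gene-class name, and in 22 neither had. In 99.1% (96.9 to 99.8), all but 2, the nearest minus-strand start lay to the left of the nearest plus-strand start, so that the genes point away from each other. The exceptions, named after their values were seen, were Y50D4A.4 with wrb-1 and pus-1 with ctps-1. There the transcripts overlap at their starts, by 55 and 74 bp, and the summit lay outside the overlap. A single pair had more than 1 summit in 8 cases, the summits being 200 to 228 bp apart. All 7 member peaks with a signal under 50 were the weaker summit of such a pair, and both summits can match the same replicate peak. With the stronger summit of each pair alone, 226 peaks remained, with a median signal of 181 in place of 173.

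The 20 highest signals are given by pair, though not strictly in order. At spd-5, the centrosome scaffold gene, and npp-6, a nuclear pore gene, signal was 2101 in replicate 1 and 2300 in replicate 2 (chromosome I, 5176026 to 5176606). This summit lay in an intron of spd-5, 237 bp from its start and outside the 175 bp between the starts. At supr-1 and dnj-28, which encodes a DnaJ-type chaperone cofactor, the replicates had 1682 and 1906, and the summit lay 113 bp from dnj-28 and 461 bp from supr-1. At F29B9.11 and jmjd-1.2, a histone demethylase gene, they had 1332 and 1169. The starts of this pair are 790 bp apart, and the summit lay 329 bp from F29B9.11 and 461 bp from jmjd-1.2.

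The retinoblastoma homologue lin-35 and vps-51, which encodes a vesicle tethering subunit, had signals of 1386 and 1161. Their summit was nearly central, 189 bp from lin-35 and 229 bp from vps-51. At snx-13, a sorting nexin gene, and snr-1, a core spliceosomal gene, the replicates had 997 and 1415. Here the summit was closer to snx-13, at 205 bp, than to snr-1, at 406 bp. The pair Y17G7B.20 and ash-2, the latter a subunit of the histone H3 methyltransferase complex COMPASS, had 842 and 1477, the widest gap between replicates among the 20 highest peaks (1.75 times). Its summit was 103 bp from ash-2 and 479 bp from Y17G7B.20.

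At fib-1, which encodes the nucleolar methyltransferase fibrillarin, and mut-15, a gene of the mutator complex for small RNA amplification, signal was 745 in replicate 1 and 714 in replicate 2. The summit lay 96 bp from fib-1 and 224 bp from mut-15. At ruvb-1, an AAA ATPase gene, and tofu-1 the values were 577 and 605. There the summit lay 66 bp from ruvb-1 and 279 bp from tofu-1. At Y47D3A.1 and pola-1, the catalytic subunit gene of DNA polymerase alpha, they were 622 and 728. At Y71G12B.30 and chaf-2, a gene of chromatin assembly factor 1, they were 648 and 718. In both of these replication pairs the summit was nearer to the named gene, at 139 and 162 bp.

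Among the other pairs of the 20 highest, signal was 1078 and 1062 at Y41D4A.6 and Y41D4A.4, and 1053 and 1074 at czw-1 and F20D12.12. It was 851 and 841 at aka-1 and ubc-6, and 778 and 737 at smn-1, the survival motor neuron homologue, and klp-16, a kinesin gene. The narrowest of the 20 was ears-2, a glutamyl-tRNA synthetase gene, and uncp-18, with starts 92 bp apart and signals of 503 and 725. The remaining 5 pairs were tag-266 with tag-267, cids-2 with phip-1, C55A6.1 with C55A6.10, sup-35 with Y48A6C.4, and F30A10.9 with usp-48, with joint signals from 1184 to 1202. Of the 20 summits, 19 lay between the starts and 18 in intergenic sequence, and all 20 peaks passed the threshold in both replicates.

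**Figure D1:**
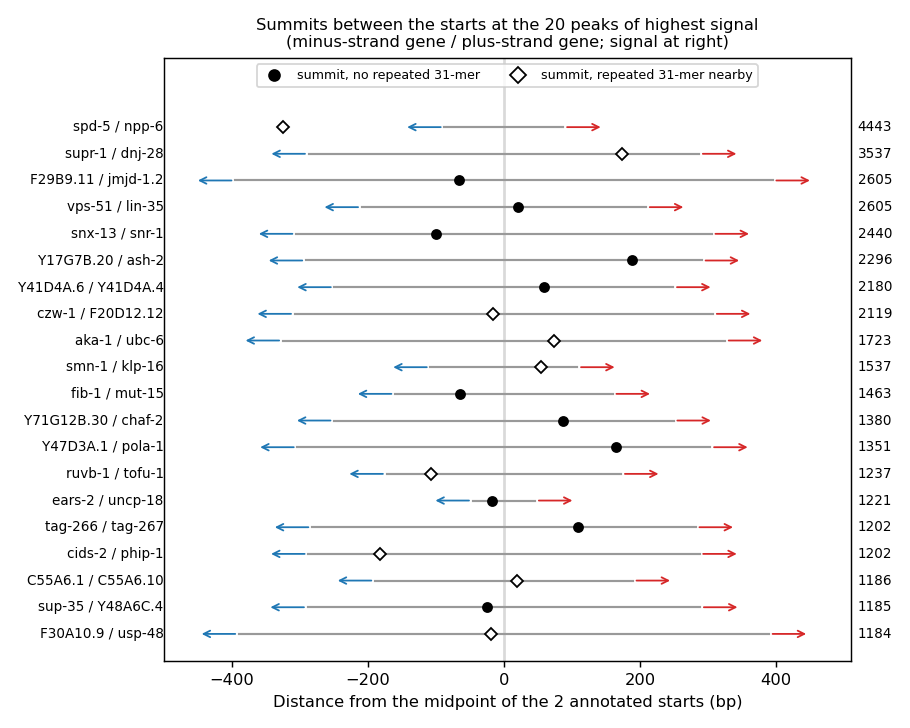
Map of the 20 member peaks of highest signal, 1 row per gene pair; the x axis is the distance in bp from the midpoint of the nearest start of each strand, the grey line spans the starts, arrows show the direction of transcription, and the symbol is the summit (open diamond where a repeated run of 31 bases lies within 100 bp). In 19 of 20 rows the summit lies between the arrows; at spd-5 and npp-6 it lies outside.

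Start spacing among the outward-facing members ran from 15 to 900 bp, with a median of 410 bp (376 to 452). The rule itself allows no spacing above 1000 bp for a summit between the starts. The smallest spacings were 15 bp at F25H9.6 and F25H9.7, 61 bp at F01F1.11 and F01F1.3, and 67 bp at gei-14 and slc-25A32, a gene of the mitochondrial carrier family. The largest were 900 bp at sqv-3 and vha-1, a gene of the proton pump V-ATPase, 839 bp at col-38, a cuticle collagen gene, and rpl-5, and 814 bp at rpl-15 and K11H12.8. Across the outward-facing members, Spearman's rho of spacing and signal was 0.15 for the joint signal, 0.20 in replicate 1 and 0.17 in replicate 2 (all peaks from the same libraries). Median signal was 141 for the 25 peaks with a spacing of up to 200 bp, 164 for 88 above that and up to 400 bp, 211 for 72 up to 600 bp and 195 for 47 up to 1000 bp. The intervals of these medians overlap, the first running from 115 to 200.9 and the third from 142 to 263.

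Summits lay between the nearest start of each strand in 215 of the 234 peaks (91.9%, 87.7 to 94.7), and therefore upstream of both those starts. Some of these summits still lay within a gene, such as those of Y17G7B.20 with ash-2 and teg-1 with mcm-10, both in an intron. Where starts are more than 500 bp apart the rule itself places the summit between them. Among the outward-facing pairs with starts at most 500 bp apart, where it could fall outside, it lay between them in 134 of 151 (88.7%, 82.7 to 92.9). The rule leaves less room outside as the spacing nears 500 bp, so this share is not free of the rule either. With the summit of the matching peak in replicate 1 the count was 213, and with that of replicate 2 it was 218. Where the starts were up to 200 bp apart, 18 of 25 summits lay between them. The median distance from the summit was 141 bp to the nearer start (125 to 155) and 286 bp to the farther one. Peaks with starts on one strand only had a median of 191 bp to the nearest start (181 to 211). A median of the nearer of 2 starts is smaller than that of 1 start by its construction.

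Positions between the starts were more often central than close to a start. Expressed as a share of the spacing, from 0 at a start to 0.50 midway, the median position was 0.35 (0.32 to 0.37, n = 215). For wide pairs the rule forces the summit toward the middle, since both starts must be within 500 bp. Among the 134 summits between starts at most 500 bp apart, where the rule sets no such limit, the median was 0.32 (0.30 to 0.37). Of these, 87 (64.9%, 56.5 to 72.5) were at least 0.25 of the spacing away from both starts. The plus-strand start was the nearer one in 117 of 215 (54.4%, 47.7 to 60.9). The median distance to the exact midpoint was 58 bp. In 115 of the 234 members (49.1%) the peak had the most frequent width of 316 bp with the summit at its centre.

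**Figure D2:**
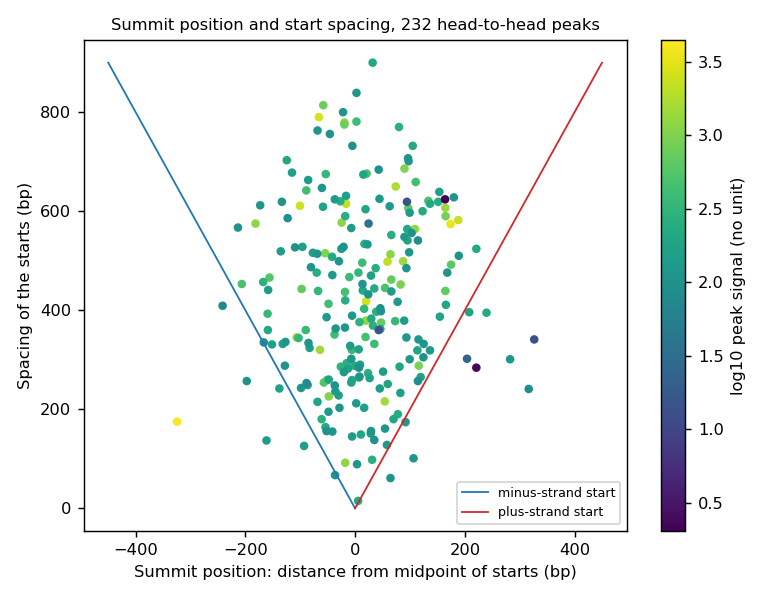
Summit position (x axis, bp from the midpoint of the starts) against the spacing of the starts (y axis, bp) for the outward-facing members; each point is a peak, coloured by log10 of its signal, and the lines mark the minus-strand and plus-strand starts. Most points (215) fall between the lines, around a median spacing of 410 bp.

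Most close divergent gene pairs carried no peak. The annotation holds 1850 pairs of outward-facing neighbouring starts at most 1000 bp apart, with no other protein-coding start between them. Of these, 224 had a member peak, a background of 12.1% (10.7 to 13.7). The share was 8.96% of 67 pairs with a spacing of up to 100 bp and 9.71% of 206 pairs above that and up to 200 bp. It was 18.8% of 223 pairs between 300 and 400 bp and 18.8% of 202 pairs between 400 and 500 bp. Above 500 bp the rule leaves less and less room for a summit near both starts, and the share was 0 of 143 pairs over 900 bp.

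Counting instead any nuclear summit between the starts, which does not depend on the 500 bp limit, gave a flatter course. The share of pairs with such a summit was 5.97% up to 100 bp, 7.28% from there to 200 bp, 17.5% between 300 and 400 bp and 18.8% between 600 and 700 bp. It was 10.5% over 900 bp. Per length, the intergenic stretches of these pairs held 0.470 summits per kb between 100 and 200 bp, 0.523 between 300 and 400 bp and 0.111 over 900 bp. The value of 1.14 per kb up to 100 bp rests on 4 summits. Pairs without a member peak had a median spacing of 491 bp (464 to 519).

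**Figure D3:**
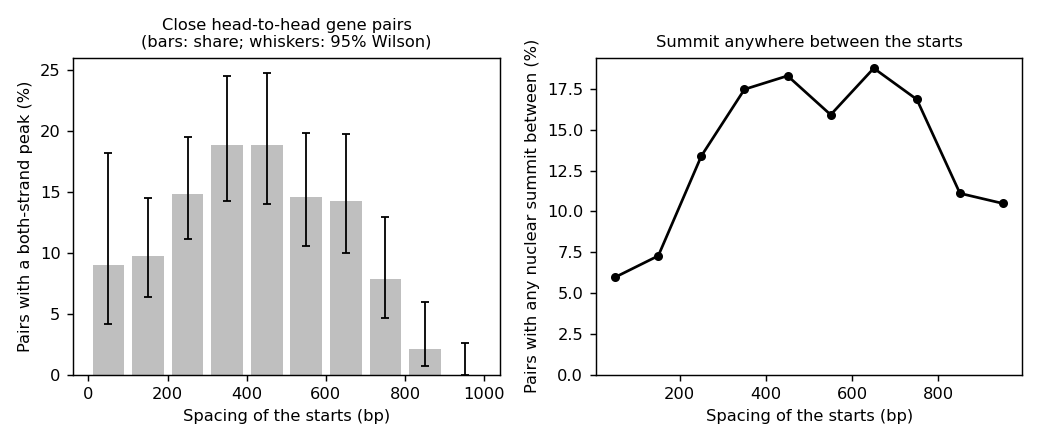
Left, share of close outward-facing gene pairs with a member peak (y axis, percent) by spacing of the starts (x axis, bp), bars with 95% Wilson intervals; right, share of the same pairs with any nuclear summit between the starts. Both are highest at middle spacings, at 18.8% for 300 to 500 bp on the left and 18.8% for 600 to 700 bp on the right.

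Intergenic sequence held 85.9% of the 234 summits (80.9 to 89.8), against 456 of 707 (64.5%, 60.9 to 67.9) for peaks with starts on one strand. The remaining members lay in introns (15), 5' untranslated regions (11) and coding exons (7). None lay in a 3' untranslated region, which allows a share of up to 1.62%. The higher intergenic share goes with the rule, since a stretch between outward-facing genes is intergenic unless another transcript covers it. Genes for tRNA, rRNA, snRNA or snoRNA were within 250 bp of 6 member summits (2.56%, 1.18 to 5.48), against 70 of the one-strand peaks (9.90%, 7.91 to 12.3).

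Signal at divergent promoters had a median of 173 (149 to 197), against 136 (127 to 145) at promoters with starts on one strand and 125 (121 to 131) for peaks without a start within 500 bp. The order was the same in each replicate. In replicate 1 the medians of the matching peaks were 83.8, 70.0 and 64.2, and in replicate 2 they were 95.9, 73.0 and 64.3. The distributions overlap widely, with quartiles of 120 and 328 at divergent promoters and 104 and 232 at one-strand promoters. Among divergent promoters 22 of 234 peaks (9.40%, 6.29 to 13.8) had a signal above 1000, and among one-strand promoters 38 of 707 (5.37%, 3.94 to 7.29).

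**Figure D4:**
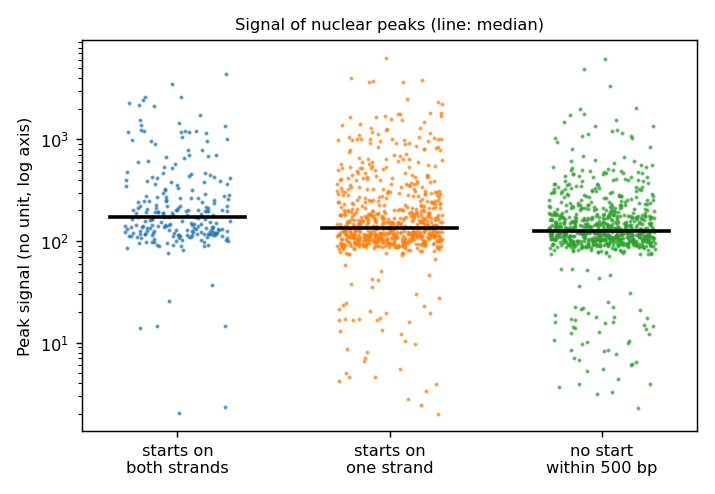
Signal of each nuclear peak (y axis, no unit, log scale) by whether annotated starts lie within 500 bp on both strands (234 peaks), on one strand (707) or on neither (744); lines are medians. The medians are 173, 136 and 125, and the 3 groups overlap over most of their range.

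Replicates gave similar signals at these peaks, which the conservative list favours, since it keeps peaks found reproducibly across the replicates. All 234 members had a matching peak in each replicate's ranked list, with a median ratio of the larger to the smaller signal of 1.19 and a largest ratio of 2.47. That largest ratio was at R12C12.6 and ran-5, with 49.9 in replicate 1 and 123 in replicate 2. Next were rpn-9, a proteasome gene, with T06D8.9 (43.0 and 104) and bmk-1, a kinesin-5 gene, with coh-3, a cohesin gene of meiosis (46.7 and 99.3). Spearman's rho between the replicates was 0.85 over the 234 members. It was 0.78 over 701 one-strand peaks, whose median ratio of the larger to the smaller signal was also 1.19. The summits of the replicates were a median of 15 bp apart, and at most 50 bp apart in 218 of 234 (93.2%).

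Passing the authors' threshold in the single replicates depended on signal. In replicate 1, 174 members (74.4%) overlapped a thresholded peak, against 64.3% of all nuclear peaks, and in replicate 2, 195 (83.3%) did, against 70.8%. Both replicates had one for 159 members (67.9%, 61.7 to 73.6), against a background of 54.5%. Members were divided by signal into 4 ranges. In the lowest, 10 of 59 (16.9%) passed in both, and 42 of 293 (14.3%) one-strand peaks in the same range of signal did. In the next range the shares were 56.9% of 58 members and 61.9% of 160 one-strand peaks. In the upper ranges they were 98.3% and 100% of members and 98.5% and 100% of one-strand peaks. The intervals of members and one-strand peaks overlapped in each range.

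**Figure D5:**
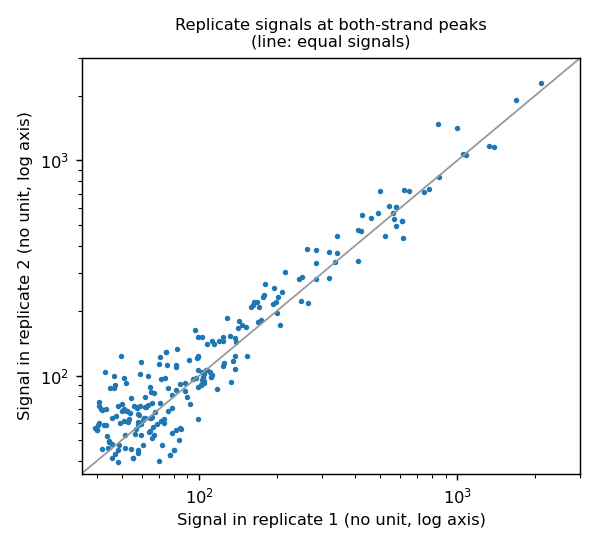
Signal of the matching ranked peak in replicate 1 (x axis) and replicate 2 (y axis), both without a unit and on log scales, for each of the 234 members; the line marks equal signals. Points follow the line, with a median ratio of 1.19 and a largest ratio of 2.47.

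The lowest joint signals were 2.04 at a weaker summit of rpl-1 and Y71F9AL.9, 2.31 at a weaker summit of hmgs-1, a gene of the mevalonate pathway, and F25B4.4, and 13.8 at a weaker summit of C45G9.11 and C45G9.2. Just inside the limit of 500 bp were snt-2, a synaptotagmin gene, with rps-29, and C45G9.11 with C45G9.2, each with a farther start at 497 bp. The next was cup-14 with ndub-8 at 494 bp, with a signal of 117. Just outside were such-1 with Y66D12A.16 at 501 bp and a signal of 125, simr-1 with C06A5.3 at 506 bp and 153, and W01A8.2 with plin-1, the perilipin gene, at 506 bp and 107.

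Ribosomal protein genes were the largest named group at divergent promoters. Over all protein-coding genes, 452 of 19973 were named at a member peak, a background of 2.26%, and 5.54% had any nuclear summit within 500 bp of a start. All but 3 of these 452 genes stand in one of the 1850 close pairs, which hold 3680 genes, and 12.2% of those 3680 were named at a member peak. Of 82 ribosomal protein genes, 48 stand in such a pair and 23 of these 48 (47.9%) were at a member peak. Any nuclear summit lay within 500 bp of a start for 58.5% of the 82, against the 5.54% of all genes. A high share is therefore not particular to divergent promoters. The share with any such summit was 27.9% for chaperone genes, 30.2% for cell cycle and replication genes and 0.306% for chemoreceptor genes. In 3 peaks both genes encode ribosomal proteins: rps-14 with rpl-36 (61.8 in replicate 1 and 71.5 in replicate 2), rps-10 with rpl-24.1 (63.4 and 73.3) and rpl-39 with rps-30 (60.5 and 47.8). These doubly ribosomal pairs had low signals beside rpl-15 with K11H12.8 (343 and 443), rpl-20 with Y17G9B.5 (319 and 376) and rpl-7A with set-21 (249 and 288).

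Where a ribosomal protein gene was paired with another kind of gene, the summit was more often nearer to the other gene, which was not tested. This held in 11 of 17 pairs, and the median distance was 277 bp to the ribosomal protein gene and 184 bp to its partner. The pair rpl-12 and lin-54, a gene of the DREAM repressor complex, was an exception, with the summit 37 bp from rpl-12 and 356 bp from lin-54. This was not particular to ribosomal protein genes. With a partner off the list, the listed gene was nearer in only 4 of 13 chaperone and 1 of 4 splicing pairs. For cell cycle and replication genes and for germline and small RNA genes it was nearer in 6 of 9. Of 5 translation factor genes at member peaks, 4 were nearer to the summit than their partner. The summit lay 13 bp from eef-2, 14 bp from eef-1B.1 and 20 bp from eef-1G, all elongation factor genes, and 206 bp from the initiation factor gene eif-3.I. Their partners were clsp-1, aco-2, ctf-4 and abtm-1. At eef-1A.1 it lay 366 bp away, nearer to rfc-4, a clamp loader gene of DNA replication.

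Chaperone genes were at member peaks in 13 of the 31 cases with a close outward-facing neighbour (41.9%). Besides dnj-28 they included dnj-12 with mtx-1 (284 in replicate 1 and 335 in replicate 2) and cct-8, a chaperonin gene, with Y55F3AR.2 (243 and 282). The pair hsp-110 and rpn-3 joins a chaperone and a proteasome gene at a single peak (107 and 106). Proteasome genes were at 3 of 21 (14.3%), near the 12.2% of all genes in close pairs. Respiratory chain genes were at 9 of 33 (27.3%), among them atp-1 with mcrs-1 (136 and 116), mev-1, a succinate dehydrogenase subunit gene, with jmjd-4 (112 and 100) and atp-5 with lmtr-3 (102 and 90.6). Splicing genes were at 6 of 30. After snr-1 came snr-2 with W08E3.4 (282 and 282) and prp-40 with clu-1 (117 and 87.0), while snr-3 with rsp-5 pairs 2 splicing genes (44.1 and 52.3).

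Cell division and germline genes were also found. Cell cycle and replication genes were at member peaks in 9 of the 26 with a close neighbour (34.6%), among them mcm-10 with teg-1 (526 in replicate 1 and 443 in replicate 2). The spindle checkpoint gene bub-1 shared its peak with lin-61, a chromatin repressor gene (202 and 232). Of the 23 genes on the DREAM and synMuv list only 5 stand in a close pair, and 4 of these were at member peaks: lin-35, lin-61, lin-53 with nra-2 (163 and 221) and lin-54. Germline and small RNA genes were at 9 of 31 (29.0%), where mut-15 and tofu-1 were followed by glh-2, a germ granule helicase gene, with C55B7.11 (114 and 140). The summit was nearer to the listed gene than to its partner in 6 of these 9, but not at mut-15 or tofu-1. Nuclear pore genes were at 2 of 12 (16.7%), npp-6 and npp-3, the latter with top-2, a topoisomerase gene (205 and 171). The share over all genes in close pairs was 12.2%.

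The remaining lists had few members. Aminoacyl-tRNA synthetase genes were at 2 of 12 (16.7%), ears-2 and tars-1, and mitochondrial ribosomal protein genes at 2 of 27 (7.41%), mrpl-18 and mrps-35. Both shares are near the 12.2% of all genes in close pairs. Chemoreceptor genes were at 2 of 129 (1.55%), among them sri-5 with rsr-1 (98.8 in replicate 1 and 106 in replicate 2). Nuclear hormone receptor genes were at 1 of 19, nhr-47, whose start lay 10 bp from the summit, while its partner dnj-19 was 406 bp away. These counts come with intervals that are wide for the short lists, and none was tested.

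GC content was higher at member summits than beside them. The windows of 50 bp on either side of member summits had a median GC content of 48.5%, against 36.1% in windows 300 bp away and 33.7% midway between the starts of the 1626 close pairs without a member peak. One-strand summits had 47.5%. TAATTA, a palindrome typical of homeodomain sites, was in 4 of 234 member windows (1.71%, 0.667 to 4.31). It was in 8.12% of the flanking windows and 7.20% of the windows midway in pairs without a member peak. Other summits had it about as rarely as members, in 2.55% of one-strand windows and 1.08% of windows without a start within 500 bp. TAAT, which TAATTA contains, was in 36.3% of member windows, 66.7% of flanking windows and 67.3% of windows in pairs without a peak. It was in 41.2% of one-strand windows and 38.8% of windows at summits without a start within 500 bp. The GC content moves with these counts of AT-rich motifs, and its part in them was not tested.

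The other motifs searched on both strands, except GAGACC and GCGAGACC, had shares at one-strand summits near those of members. These exceptions were higher at members, but GAGACC was picked because it was frequent at these summits, and GCGAGACC contains it. Their intervals at members and one-strand summits overlap (GAGACC 14.7 to 24.8 and 10.5 to 15.4, GCGAGACC 6.64 to 14.3 and 3.94 to 7.29). TATAAA was in 3.85% of member windows, 10.3% of flanks and 4.95% of one-strand windows. TTTCAG, the consensus end of worm introns and trans-splice sites, was in 9.40% of member windows, 30.3% of flanks and 8.63% of one-strand windows. For GGGCGG the shares were 10.7% of members, 0.641% of flanks and 8.49% of one-strand windows. For CACGTG they were 2.99%, 1.71% and 3.39% in the same order. GAGAGA was in 28 of 234 member windows, 5.56% of flanks and 13.0% of one-strand windows, and in 15.6% of windows at summits without a start within 500 bp. GAGACC and ACGCGC were added after their frequency had been seen. GAGACC was in 45 member windows (19.2%, 14.7 to 24.8), 12.7% of one-strand windows, 3.42% of flanks and 4.74% of windows in pairs without a peak. ACGCGC was in 44 (18.8%, 14.3 to 24.3), 16.8%, 0.641% and 4.61% in the same order. The longer GCGAGACC, which contains GAGACC, was in 23 member windows (9.83%, 6.64 to 14.3), 5.37% of one-strand windows, 0 of 468 flanks and 1.54% of windows in pairs without a peak. AAACGCGC, which contains ACGCGC, was in 8.55% of member windows and 0.214% of flanks. These matches are letters in a window and not measured binding sites.

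Repeated sequence lay under some of the highest peaks. The 100 bp on either side of the summit held a run of 31 bases found again in the nuclear genome at 29 of the 234 members (12.4%, 8.77 to 17.2), fewer than the 133 of 707 (18.8%, 16.1 to 21.9) for one-strand peaks. Among the 20 highest members 9 did, and among the other 214 there were 20. Median signal was 210 for the 29 (127 to 1184) and 171 for the other 205 (148 to 195), with overlapping intervals. One-strand peaks with and without such a run had medians of 166 and 132. How reads that match several places were treated is not given in the sources used here, and the part of repeats in the signal was not tested. Without these 29 the GAGACC share was 33 of 205 (16.1%, 11.7 to 21.7) and the ACGCGC share 42 of 205 (20.5%, 15.5 to 26.5).

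Of the repeated members, 13 fell into 2 families whose windows share runs of 31 bases. The first, shown above, comprised 9 peaks at 7 pairs: czw-1 with F20D12.12, aka-1 with ubc-6, ruvb-1 with tofu-1, cids-2 with phip-1, C55A6.1 with C55A6.10, F30A10.9 with usp-48 and tars-1 with xpf-1. Its most shared run occurs 88 times in the nuclear genome, and 27 of these copies (30.7%) lie within 150 bp of a nuclear summit. Of the 35 copies within 500 bp of a protein-coding start, 18 had such a summit. The families were found from member peaks, so these counts include the copies that defined them. The second family comprised spd-5 with npp-6, supr-1 with dnj-28, smrd-1 with enu-3.1 and cec-7 with enu-3.5. Its most shared run occurs 61 times, with a nuclear summit beside 31 copies. Of the 25 copies near a start 18 had one. Copies of both families therefore also lie without a peak, and peaks lie on copies away from starts.

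Named after their values were seen, repeated members also include the histone genes his-60 and his-59 (signal 99.6) and F44E5.4 with F44E5.5 (395). The place of such peaks among near-identical copies is uncertain.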

How the data were processed

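Peak lists of 2 biological replicates were used as deposited, on ce11. Per the labels, chromatin was sonicated to 200 to 800 bp. Aligner and peak caller: not given in the sources used here. Each deposited signal is the authors' enrichment value. The deposited score rises as the IDR falls, per the column order of the format, and the ranked lists hold the authors' −log10 of the global IDR. The conservative list holds 1707 peaks, of which 22 mitochondrial ones were left out. The 8 columns of replicate values in the joint ranked list were not used. Replicate values come from each replicate's own ranked list, as the overlapping peak (at least 1 bp) of nearest summit.

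Starts were the 29304 distinct 5' ends of protein-coding transcripts of Ensembl release 115 (WBcel235, the sequence of ce11). Starts of non-coding transcripts of protein-coding genes were left out, which gives 234 members where counting them gives 236. The nearest start of each strand named the pair. Named pairs were the 20 of highest and 3 of lowest signal, the 3 smallest and largest spacings, 3 at each side of the 500 bp limit, the 3 largest replicate ratios, and the highest of each gene list. Lists were symbol patterns. Members and lists were chosen with earlier results of these data known, and no test was made. Intervals are 95% Wilson intervals or, for medians, binomial order-statistic intervals. Alternatives were other windows, peak lists, start sets and IDR. The work was done in Python (version 3.11.15) with matplotlib 3.10.9, scipy 1.17.1, pandas 2.3.3 and numpy 2.4.6. The classification of peaks was tested on simulated data. Some list patterns were corrected after values were seen: rpl-7A and ndu names of complex I were added, and names of other gene families were taken out of the chemoreceptors. One gene pair is not reported here.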

Additional observations from a re-analysis of the deposited data

How the results depend on the processing

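No paired analysis was possible because a single group of 2 replicates was present. Of 110 alternative values of 11 results, 83 stayed within the interval of the reported share or median, within the replicate SD for the signal ratio, or within 1.5 times for the number of members, which was 307 with 750 bp and 175 at the stricter IDR. With a window of 250 bp the members numbered 92 (5.46% of nuclear peaks), the median spacing was 263 bp, the median position 0.39, the signal ratio to one-strand peaks 1.22 (reported 1.27), the share of close pairs with a peak 4.97% and the TAATTA share 0. With 750 bp these were 18.2% of peaks, 485 bp, a ratio of 1.25 and 15.03% of pairs. At a global IDR of at most 0.001 members were 17.2% of peaks, 94.9% of summits lay between the starts, the signal ratio was 1.09, 9.19% of close pairs had a peak and 89.7% passed in both replicates. Leaving out peaks beside small RNA genes gave 16.5% of peaks and a ratio of 1.24. Leaving out repeated sequence, an alternative chosen after seeing the data like that of all transcripts, gave 18.0% and 1.30. Pairs at most 500 bp apart had a peak in 15.1%, and TAATTA was in 7.26% of windows of 100 bp on either side, against 14.3% of flanks and 7.36% of one-strand windows of that width. In the list of a single replicate, without replicate 1 or without replicate 2, members were 15.4% to 16.0% of peaks, 92.7% to 95.3% of summits lay between the starts, the signal ratio was 1.14 to 1.17 and 9.46% to 11.4% of close pairs had a peak. Read depth is unknown, so what depth limits could not be measured.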

Other observations

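Member peaks were spread unevenly over the chromosomes, and so were one-strand peaks. Chromosome I held 27.8% of members and 26.2% of one-strand peaks, and X held 0.855% and 2.40%. On II the shares were 14.5% and 19.7%. Of the close outward-facing pairs, 17.9% of 346 on chromosome I had a member peak (95% Wilson interval 14.2 to 22.3), 14.7% of 312 on III, 13.4% of 329 on IV, 9.65% of 342 on II and 8.49% of 436 on V. On X, 2 of 85 pairs had one (2.35%, 0.648 to 8.18). These were sec-15, a gene of the exocyst, with C28G1.2 (signal 53.7 in replicate 1 and 67.3 in replicate 2) and trap-2, a subunit gene of the translocon-associated complex, with ile-2 (49.4 and 60.4), named after their values were seen. Both are low beside the member medians of 83.8 and 95.9. The differences between chromosomes were not tested.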
